A study of Rattus norvegicus with 6 samples.

Results

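The interferon response and antigen processing genes followed here are 38 rat genes, most of them transcribed more strongly when an interferon or a related inflammatory signal reaches a cell, together with factors such as Irf3 that act in the response without being induced by it. The genes were found by their symbols in the deposited gene table, and all 38 were there among 18420 genes. They were sorted by role into 6 transcription factors, 4 nucleic acid sensors, 15 antiviral effectors, 7 genes of the ubiquitin-like, ubiquitin and ADP-ribose systems, and 6 genes of antigen processing.

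RNA-seq was performed on primary chondrocytes, the cells of articular cartilage, taken from the knees and hips of wild-type male Sprague-Dawley rats weighing 180 to 220 g and used at the third passage. In the TNF-α group (n = 3), cells received TNF-α at 10 ng/mL during 6 h, an inflammatory stimulus used as a cellular model of osteoarthritis. In the TNF-α+NFL group (n = 3), the same exposure was followed by NFL for 24 h. NFL is Nanofat lysate, made by freezing and thawing the stromal vascular fraction of rat abdominal fat. The labels give a time of 6 h for the TNF-α cells and of 30 h for the TNF-α+NFL cells. The sources do not say whether the TNF-α cells were kept in culture to 30 h, and if they were harvested at 6 h, NFL and 24 h of further culture cannot be told apart. Both groups had received TNF-α, so the data hold no value without it here, and the untreated group was not analysed here. Directions below follow the deposited group labels (TNF-α+NFL relative to TNF-α), whereas the gene list in the study's supplement is oriented the opposite way for this pair of groups. Which orientation is right was not settled here, so each direction below depends on those labels.

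As background, type I interferons signal through JAK kinases to a complex that holds STAT2 and IRF9 and binds a DNA element called the ISRE, whereas interferon-γ acts mainly at an element called GAS. TNF-α is an inflammatory cytokine that raises IRF1 and the antigen processing genes in many cell types, in part through NF-κB. Antigen processing genes encode the inducible proteasome subunits that cut proteins into peptides, the TAP transporter that moves the peptides into the endoplasmic reticulum, and tapasin, which helps load them on MHC class I molecules.

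Each library held 19344893 to 19725135 estimated read counts. Pearson's r of log2 values between libraries was 0.986 to 0.989 within the TNF-α group, 0.991 to 0.992 within the TNF-α+NFL group and 0.988 to 0.990 between the groups, and replicates differed by more than sampling noise (chi-square of 2.80 to 14.9 per gene). TNF-α replicate 1 stood apart. With it, 81 genes passed an adjusted p of 0.05 in the whole table (54 higher and 27 lower in TNF-α+NFL, of 13250 tested), and without it 930 did (460 higher and 470 lower, of 13409 tested). The summed TPM (a read level scaled for transcript length and library size) of 13 chondrocyte markers was 1403 to 1835 in the TNF-α libraries and 1542 to 1699 in the TNF-α+NFL libraries, most of it from Prg4 and Col11a1. Col2a1, Acan and Sox9 were detected at low levels, with 7.72 ± 0.551, 5.11 ± 0.748 and 4.42 ± 0.581 TPM (mean ± SD of 3 libraries) in the TNF-α libraries and 9.23 ± 0.475, 5.55 ± 0.531 and 4.66 ± 0.444 in the TNF-α+NFL libraries. The summed TPM of 8 fibroblast markers was 12805 to 16357 in the TNF-α libraries and 13529 to 14168 in the TNF-α+NFL libraries. Most of it came from Fn1, at 9423 ± 1733 against 8846 ± 247 TPM. Fewer cells of a type and less RNA per cell cannot be told apart in these bulk samples.

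The windows just before the transcription start of 6 of these genes are shown because they differ in the interferon elements they hold. The sequences are RefSeq's for the build GRCr8, each covering the 150 bases before the start, written 5′ to 3′ on the strand of the gene, and capitals mark matches on either strand to the ISRE (GAAA, any 2 bases and GAAA again) or to GAS (TTCNNNGAA). RefSeq promoter windows were matched for 30 of the 38 genes, and Nlrc5, Ddx58, Dhx58, Zbp1, Ifit2, Mx2, Isg15 and Usp18 were not matched.
Ifitm3, chr1:205541759-205541908 on the minus strand: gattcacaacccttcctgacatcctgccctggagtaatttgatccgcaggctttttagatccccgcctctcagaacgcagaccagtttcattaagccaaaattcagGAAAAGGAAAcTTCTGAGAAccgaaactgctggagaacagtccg
Oas1a, chr12:41330316-41330465 on the plus strand: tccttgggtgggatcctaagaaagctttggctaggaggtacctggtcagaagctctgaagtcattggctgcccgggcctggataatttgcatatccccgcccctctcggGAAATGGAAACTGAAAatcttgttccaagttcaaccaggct
Irf1, chr10:38417785-38417934 on the plus strand: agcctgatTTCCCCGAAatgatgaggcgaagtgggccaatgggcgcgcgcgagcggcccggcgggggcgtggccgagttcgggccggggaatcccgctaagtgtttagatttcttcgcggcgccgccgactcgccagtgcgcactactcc
Tapbp, chr20:4967878-4968027 on the minus strand: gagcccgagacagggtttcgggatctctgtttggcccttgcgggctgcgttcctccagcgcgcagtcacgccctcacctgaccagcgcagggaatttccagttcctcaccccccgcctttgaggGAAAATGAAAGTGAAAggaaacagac
Tap1, chr20:4668544-4668693 on the minus strand: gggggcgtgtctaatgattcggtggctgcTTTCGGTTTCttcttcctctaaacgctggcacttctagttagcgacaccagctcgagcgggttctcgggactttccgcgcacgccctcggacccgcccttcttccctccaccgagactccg
Psmb9, chr20:4668850-4668999 on the plus strand: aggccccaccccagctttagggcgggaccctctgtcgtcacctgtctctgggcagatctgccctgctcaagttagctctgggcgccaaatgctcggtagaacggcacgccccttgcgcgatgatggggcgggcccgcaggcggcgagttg

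The Ifitm3 window held 1 ISRE that began 44 bases before the start and 1 GAS at 33 bases. Oas1a and Tapbp each held a pair of ISRE matches that overlap each other, from 41 and 26 bases before the start, and no match to either element was found in the Psmb9 window. Tap1 and Psmb9 lie head to head on opposite strands of the same chromosome. The ISRE match of Tap1 therefore also lies before the Psmb9 start, but farther off than the 250 bases searched. Over the full windows of 250 bases before to 50 after the start, 19 of the 30 genes (63.3%) held an ISRE match and 8 (26.7%) a GAS match, against 1312 (3.92%) and 2970 (8.87%) of all 33469 RefSeq windows. The GAS match of Bst2 overlapped 1 of its ISRE matches. The 19 genes with an ISRE match had a mean TPM over the 6 libraries of 0.090 to 1423 (median 11.9), and the 11 without one had 0.075 to 53.3 (median 19.1). Of the genes by mean TPM, Ifitm3, Ifi27, Tapbp, Psmb10 and Psmb8 each held an ISRE match, and the next in order, Irf1, Psmb9, Irf3 and Stat2, held none.

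The levels of the 38 genes differed widely. Over the 6 libraries the mean was above 100 TPM for 3 genes (Ifitm3, Ifi27 and Tapbp), between 10 and 100 for 16, between 1 and 10 for 12 and under 1 for 7. Ifitm3, a membrane protein that blocks virus entry, was the highest at 1451 ± 4.36 TPM without NFL and 1394 ± 4.06 with it (SD, n = 3), at the 99.5th percentile of the table. At the other end, Zbp1, Mx1, Oas1a, Oasl, Rsad2 and Usp18 had at most 10 estimated counts in every library and were left out of the test with the filter on low counts.

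**Figure D1:**
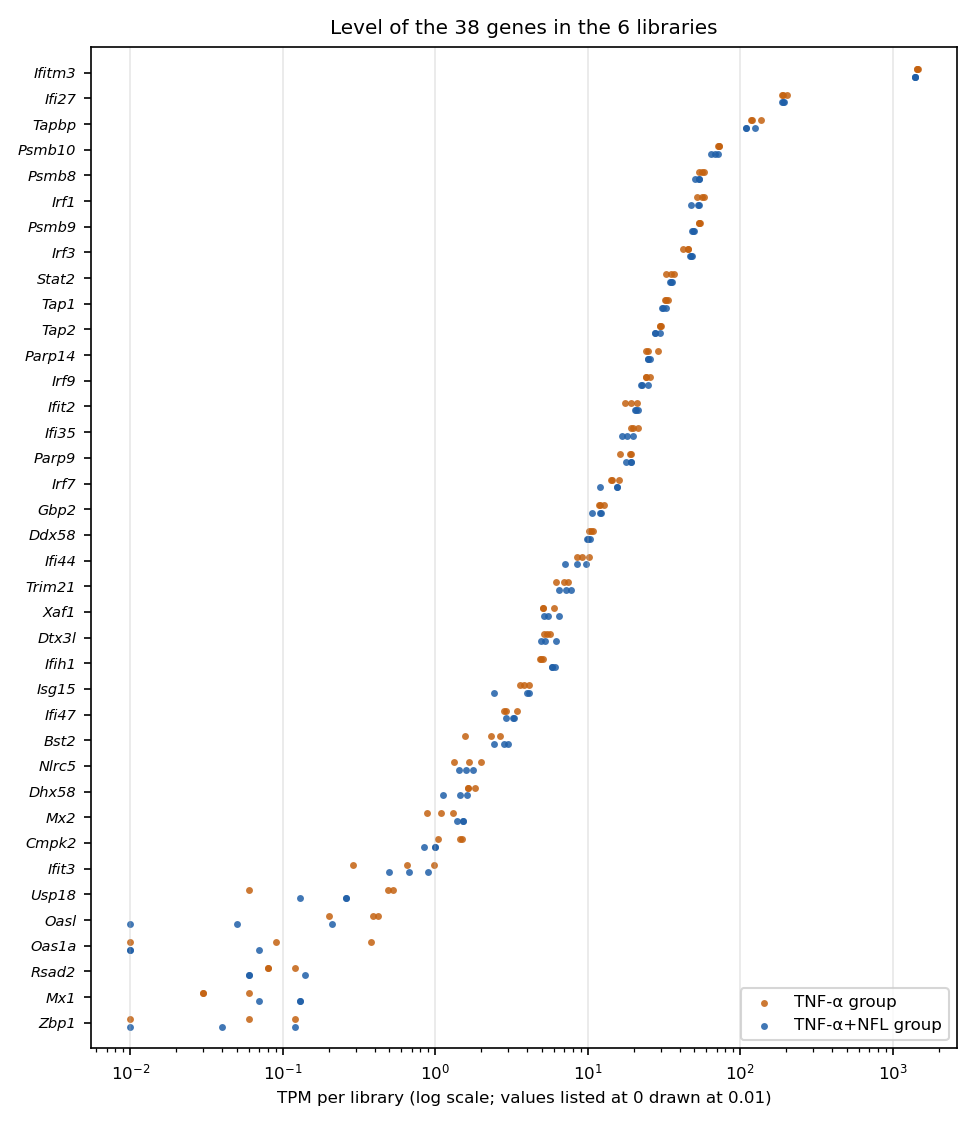
Level of each of the 38 genes in TPM (log axis) in the 6 libraries, sorted by mean level, with 1 point per library and values of 0 drawn at 0.01. Ifitm3 stands highest and the 6 genes left out of the test lie at the low end, and the points of the 2 groups lie close together for each gene above 10 TPM.

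The comparison asks whether these genes differed between cells given TNF-α alone and cells given TNF-α and then NFL. No gene of the 38 passed an adjusted p of 0.05 in either direction (edgeR's quasi-likelihood test, two-sided, Benjamini-Hochberg adjustment over 13250 genes), and the lowest adjusted p among the 32 tested was 0.233. Of all genes tested, 0.611% passed (0.408% higher and 0.204% lower). At an unadjusted p under 0.05, 1 of the 32 was higher and 7 were lower in TNF-α+NFL, where 11.1% of all genes were past that level in either direction (5.66% higher and 5.45% lower). DESeq2's Wald test also called 0 of them, against 0.943% of all genes, with 0 higher and 2 lower at an unadjusted p under 0.05, where 5.93% of all genes were past it. limma-voom called 0, against 0.634% of all genes, with 1 higher and 6 lower at an unadjusted p under 0.05 (11% of all genes). With the replicate number as a block, edgeR called 0 (0.257% of all genes), and 4 were lower at an unadjusted p under 0.05 (4.8% of all genes).

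The differences were small. No tested gene differed by more than 1.5-fold, and the log2 fold changes (TNF-α+NFL minus TNF-α) ran from -0.49 for Cmpk2 to 0.31 for Bst2. Values below 0 were more frequent among these genes, with 21 of 32 (65.6%) against 51.8% of all tested genes, and their median was -0.087 against -0.0035. The CPM values (read counts scaled to library size) of the groups did not overlap for 11 genes, of which 1 was higher and 10 were lower in TNF-α+NFL, and 16.8% of all tested genes had such groups (8.66% higher and 8.17% lower). With 3 libraries against 3, the smallest two-sided p of an exact permutation test is 0.10, so that test cannot reach 0.05 here.

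The depth bounded what could have been seen. For the 16 genes with at least 400 counts in every library, the standard error (SE) of the log2 fold change was 0.036 to 0.067, and every 95% interval lay between -0.30 and 0.23, that is between 0.813 and 1.17 times the TNF-α level. For the other 16 tested genes the SE reached 0.40 and the intervals spanned 0.518 to 1.90 times.

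**Figure D2:**
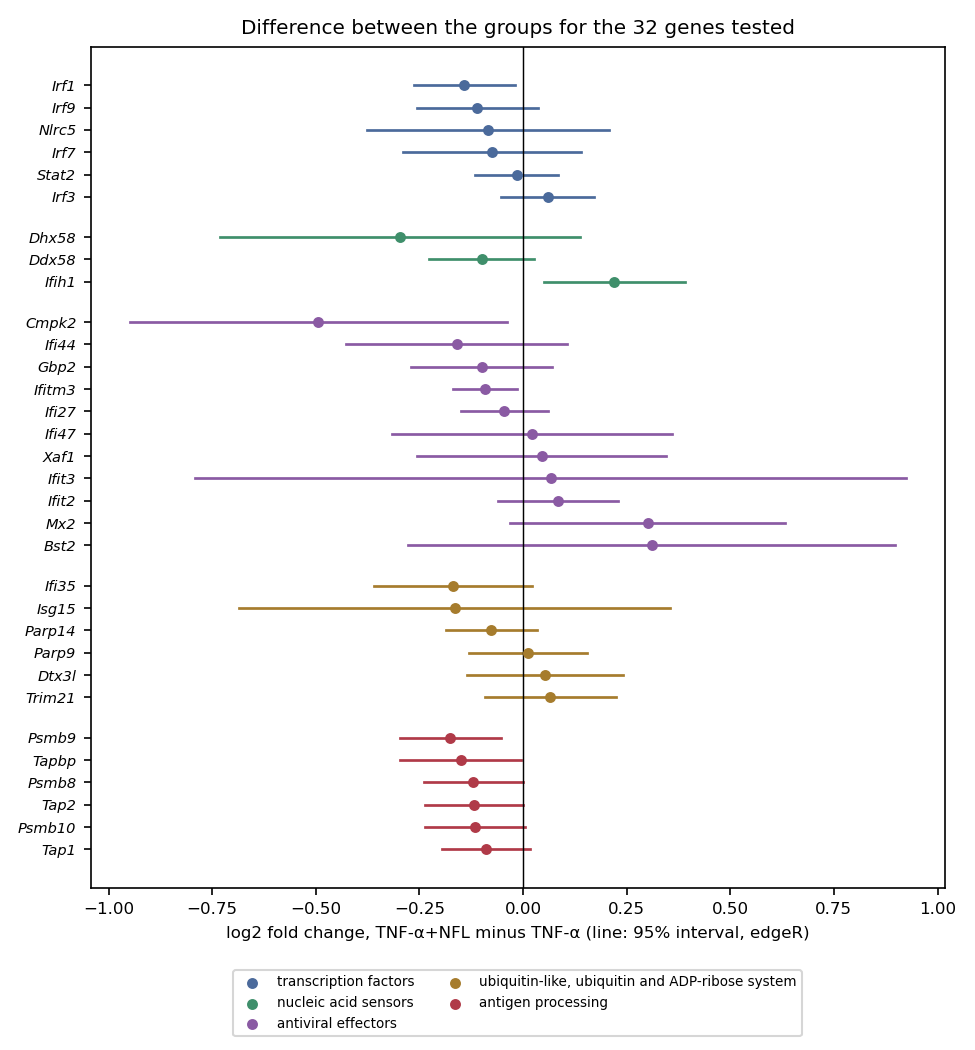
Log2 fold change (TNF-α+NFL minus TNF-α) of the 32 tested genes with its 95% interval, grouped by role, from edgeR. The intervals of the abundant genes are narrow and close to 0, all 6 antigen processing genes lie below 0, and the widest intervals belong to genes with few counts such as Ifit3 and Bst2.

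The antigen processing genes gave the most uniform values, with all 6 below 0 and a median log2 fold change of -0.12. None passed the adjusted threshold, 4 were lower at an unadjusted p under 0.05 in edgeR (5.45% of all tested genes were), and in 4 the groups did not overlap (8.17% of all tested genes were lower without overlap). In DESeq2's Wald test Tapbp alone of these 6 was lower at an unadjusted p under 0.05, where 5.93% of all genes passed in either direction. Psmb9, the inducible β1i subunit of the proteasome (Entrez gene 24967), was at 24.1, 25.2 and 25.1 CPM in the TNF-α libraries and at 22.01, 22.07 and 21.79 in the TNF-α+NFL libraries. All 3 TNF-α+NFL values lay below the lowest TNF-α value, and the replicates lay closer to each other than the groups did. The log2 fold change was -0.18 (SE 0.056), with an adjusted p of 0.233 by edgeR's quasi-likelihood test and p = 0.10 in the exact permutation test.

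Psmb8 (24968), the β5i subunit, was at 31.0, 29.6 and 31.1 CPM in the TNF-α libraries and at 27.0, 28.7 and 28.7 in the TNF-α+NFL libraries. Its log2 fold change was -0.12 (SE 0.055), with an adjusted p of 0.448 in edgeR. Psmb10 (291983), the β2i subunit, was at 35.6, 36.7 and 36.5 CPM against 33.5, 31.5 and 35.3, with a log2 fold change of -0.12 (SE 0.056) and an adjusted p of 0.475 in edgeR. For both subunits the highest TNF-α+NFL library lay just under the lowest TNF-α library.

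The transporter genes showed a similar size of difference. Tap1 (24811) was at 45.1, 44.4 and 45.6 CPM in the TNF-α libraries and at 41.3, 41.7 and 44.1 in the TNF-α+NFL libraries, a log2 fold change of -0.089 (SE 0.049) with an adjusted p of 0.553 in edgeR. Tap2 (24812), which forms the transporter with Tap1, was at 36.4, 37.8 and 37.97 CPM against 33.4, 33.4 and 36.5, a log2 fold change of -0.12 (SE 0.055) with an adjusted p of 0.449 in edgeR. For Tap2 the groups overlapped, because TNF-α+NFL replicate 3 was above TNF-α replicate 1. Tapbp (25217), which encodes tapasin, was at 107, 94.0 and 96.4 CPM against 84.8, 84.96 and 97.9, a log2 fold change of -0.15 (SE 0.066) with an adjusted p of 0.430 in edgeR. Its TNF-α+NFL replicate 3 lay above TNF-α replicates 2 and 3, and TNF-α replicate 1 was the highest of the 6, without which the log2 fold change was -0.093.

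**Figure D3:**
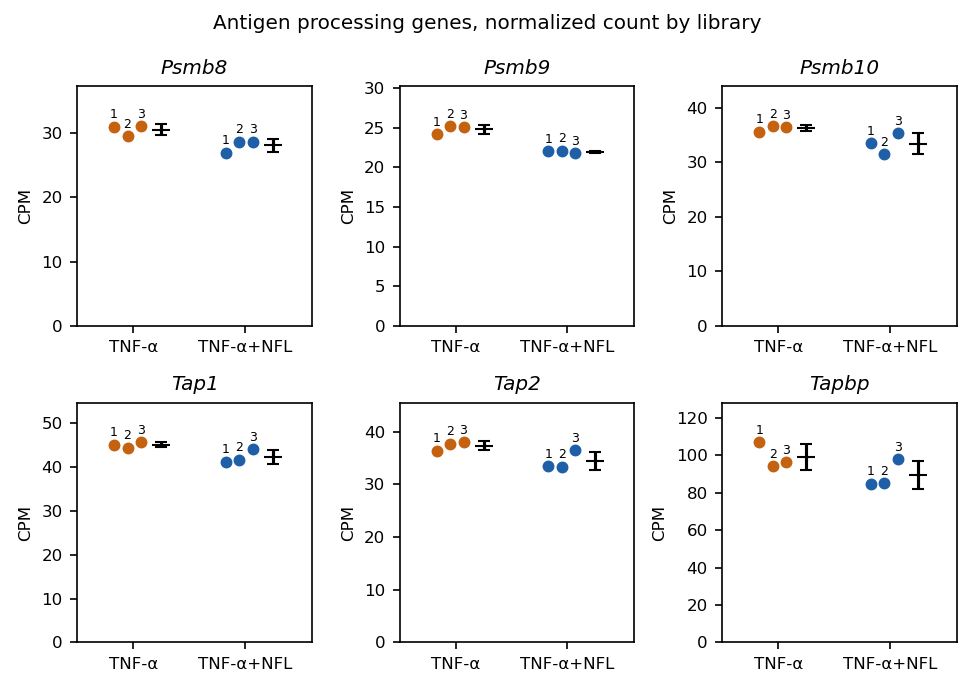
CPM of the 6 antigen processing genes in each library, with the mean and SD of each group (n = 3). The TNF-α+NFL points lie below all TNF-α points for Psmb9, Psmb8, Psmb10 and Tap1 and overlap them for Tap2 and Tapbp.

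The inducible subunits replace the constitutive subunits Psmb5, Psmb6 and Psmb7 in the immunoproteasome, so each was also set against the subunit it replaces. The TPM ratio of Psmb8 to Psmb5 was 0.311, 0.249 and 0.276 in the TNF-α libraries and 0.278, 0.288 and 0.301 in the TNF-α+NFL libraries. Psmb9 to Psmb6 was 0.324 ± 0.0234 against 0.321 ± 0.0128 and Psmb10 to Psmb7 was 0.319 ± 0.0225 against 0.313 ± 0.0174 (SD, n = 3). The groups overlapped in all 3 ratios, and TNF-α replicate 1 had the highest value in each. In that library the median deviation of the constitutive core proteasome genes from their own means was -0.094 on the log2 scale, against 0.098 and 0.12 in the other TNF-α libraries. Without it the ratio of Psmb8 to Psmb5 no longer overlapped, with TNF-α values of 0.249 and 0.276 below the lowest TNF-α+NFL value of 0.278. The constitutive subunits lay on the same side as the inducible ones, with 12 of 14 genes of the constitutive core proteasome below 0, a median log2 fold change of -0.072 and 0 called in edgeR. Of these 14, 4 were lower at an unadjusted p under 0.05, where 5.45% of all tested genes were. Psmb1 and Psma6, the most abundant of them, were at 404 ± 20.4 against 382 ± 2.85 TPM (log2 fold change -0.11, adjusted p = 0.411 in edgeR) and at 345 ± 17.9 against 338 ± 7.19 TPM (-0.062, adjusted p = 0.719). With TNF-α replicate 1 left out, 9 of the 14 constitutive genes were called lower in edgeR and 0 of the 6 antigen processing genes were, where 3.51% of all genes tested were called lower. In that fit the median log2 fold change was -0.14 for the constitutive genes and -0.12 for the antigen processing genes.

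**Figure D4:**
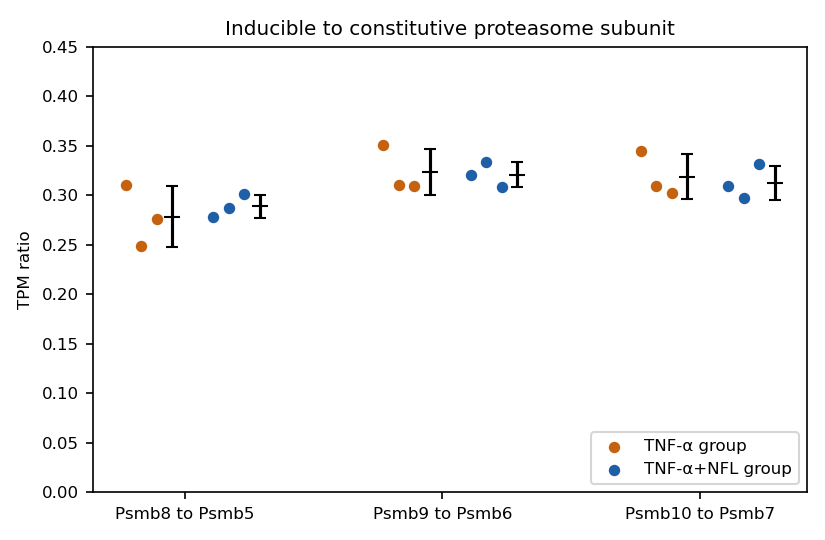
Ratio of the TPM of each inducible proteasome subunit to that of the constitutive subunit it replaces, per library, with the mean and SD of each group (n = 3). The ratios lie between 0.249 and 0.351, and the groups overlap in all 3.

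Of the 6 transcription factors, 1 had a log2 fold change above 0 and 5 below, with a median of -0.080 (-0.052 without TNF-α replicate 1). Irf1 (24508), which TNF-α and interferon-γ induce and which acts at ISRE sites, was at 59.3, 58.7 and 55.6 CPM in the TNF-α libraries and at 54.3, 48.1 and 54.9 in the TNF-α+NFL libraries. The groups did not overlap, although TNF-α replicate 3 and TNF-α+NFL replicate 3 were close. The log2 fold change was -0.14 (SE 0.056), with an adjusted p of 0.355 in edgeR and p = 0.10 in the exact permutation test, and it was -0.083 without TNF-α+NFL replicate 2.

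Irf9 (305896), which gives the complex with STAT2 its binding to the ISRE, was at 22.9, 24.6 and 25.4 CPM against 23.9, 21.0 and 22.7, a log2 fold change of -0.11 (SE 0.067) with an adjusted p of 0.600 in edgeR. Irf3 (292892), which acts directly after nucleic acid sensing, was at 35.6, 37.1 and 34.2 CPM against 36.9, 37.7 and 36.8, a log2 fold change of 0.059 (SE 0.052; 0.033 to 0.093 when TNF-α replicate 3 or 2 was left out) with an adjusted p of 0.746 in edgeR. Both genes had overlapping groups. Stat2, Irf7, which amplifies the type I response, and Nlrc5, the coactivator of MHC class I genes, had log2 fold changes of -0.016, -0.075 and -0.085 with SEs of 0.046, 0.099 and 0.13.

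The sensors recognise viral RNA or DNA in the cytoplasm. Ifih1 (499801), which encodes MDA5, was the only gene that was higher at an unadjusted p under 0.05, at 9.63, 10.3 and 10.0 CPM in the TNF-α libraries and at 11.5, 11.4 and 12.02 in the TNF-α+NFL libraries. All TNF-α+NFL values lay above all TNF-α values. The log2 fold change was 0.22 (SE 0.079), with an adjusted p of 0.295 in edgeR and p = 0.10 in the exact permutation test.

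The other tested sensors lay on the opposite side. Ddx58 (297989), which encodes RIG-I, was at 23.4, 24.8 and 23.7 CPM against 22.3, 21.9 and 23.0, a log2 fold change of -0.10 (SE 0.058) with an adjusted p of 0.575 in edgeR. Dhx58 (303538), which encodes LGP2, was at 1.99, 2.08 and 2.28 CPM against 1.84, 1.38 and 1.93, a log2 fold change of -0.30 (SE 0.20) with an adjusted p of 0.651 in edgeR, and rested on 27 to 45 counts per library. The groups of both genes did not overlap. Zbp1, a sensor of Z-form nucleic acid, had 1, 0 and 2 counts in the TNF-α libraries and 0, 1 and 2 in the TNF-α+NFL libraries, at or under the floor of 3 counts in every library.

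Of the 15 antiviral effectors 11 were tested, with 6 log2 fold changes above 0, 5 below and a median of 0.021. Without TNF-α replicate 1 the median of these effectors was -0.011. Ifitm3 (361673) was at 421, 433 and 436 CPM in the TNF-α libraries and at 405, 402 and 404 in the TNF-α+NFL libraries. The groups did not overlap, and the log2 fold change of -0.092 (SE 0.036) had an adjusted p of 0.337 in edgeR. Without TNF-α replicate 1, Ifitm3 had an adjusted p of 0.0297 at a log2 fold change of -0.11 in edgeR, and it was the only one of the 38 genes that passed 0.05 in any fit. In that fit 6.94% of all genes passed.

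Cmpk2 (314004), a mitochondrial nucleotide kinase that lies beside Rsad2 and is induced by interferon, had the most negative log2 fold change. It was at 2.41, 1.77 and 2.38 CPM in the TNF-α libraries and at 1.58, 1.33 and 1.73 in the TNF-α+NFL libraries, where TNF-α replicate 2 was close to TNF-α+NFL replicate 3. The log2 fold change was -0.49 (SE 0.21), with an adjusted p of 0.401 in edgeR, and the gene had 26.2 to 47.1 estimated counts per library. With limma on log2(FPKM + 1), a scale that shrinks changes of low genes, it was -0.19. Ifi27 (170512), an interferon-induced mitochondrial protein gene and the second most abundant of the 38, was at 73.2, 76.0 and 81.7 CPM against 75.0, 72.8 and 76.0, a log2 fold change of -0.045 (SE 0.049) with an adjusted p of 0.808 in edgeR and overlapping groups.

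The groups of the remaining tested effectors overlapped. The largest positive values were those of Bst2, which encodes the virus tether tetherin, at 0.31 (SE 0.27; 0.13 without TNF-α replicate 2) with 12 to 22 counts per library, and Mx2, a dynamin-like GTPase gene, at 0.30 (SE 0.15; 0.18 without TNF-α replicate 3 and 0.16 with limma on log2(FPKM + 1)). Ifit3, which encodes an interferon-induced tetratricopeptide protein, had 6.01 to 19.1 counts per library, and its interval of 0.578 to 1.90 times the TNF-α level was the widest of the 32 tested. The untested effectors had at most 8 counts in any library. Oasl had 8, 4 and 8 counts in the TNF-α libraries and 0, 4 and 1 in the TNF-α+NFL libraries, and Mx1 had 1, 2 and 1 against 4, 2 and 4. Rsad2, which encodes viperin, had 4, 3 and 3 against 2, 5 and 2, and Oas1a had 4.99, 0 and 1.3 against 0, 0 and 1.

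Of the 7 genes of the ubiquitin-like, ubiquitin and ADP-ribose systems 6 were tested, with 3 log2 fold changes above 0 and 3 below. Their median was -0.032, and -0.0012 without TNF-α replicate 1. Ifi35 (287719), an interferon-induced leucine zipper protein gene, was at 11.3, 10.7 and 10.5 CPM in the TNF-α libraries and at 10.4, 8.81 and 9.67 in the TNF-α+NFL libraries. The groups did not overlap, with TNF-α replicate 3 and TNF-α+NFL replicate 1 nearly equal, and the log2 fold change of -0.17 (SE 0.088) had an adjusted p of 0.527 in edgeR. Parp14 (303903), an ADP-ribosyltransferase, had the highest mean TPM of the group and was at 103, 92.3 and 90.7 CPM against 89.8, 91.2 and 90.2. Its log2 fold change of -0.077 (SE 0.051) had an adjusted p of 0.642 in edgeR, and TNF-α replicate 1 was the highest library, without which it was -0.016.

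Isg15, the ubiquitin-like protein that is attached to other proteins in the interferon response, had 24, 27 and 33 counts in the TNF-α libraries and 29, 19 and 27 in the TNF-α+NFL libraries, a log2 fold change of -0.16 (SE 0.24) that was -0.0031 without TNF-α+NFL replicate 2. Usp18, the protease that removes Isg15, had 8, 1 and 8 counts against 2, 4 and 4 and was not tested. Parp9 and Dtx3l, which form an ADP-ribosylating ubiquitin ligase, had log2 fold changes of 0.012 and 0.053 (-0.013 for Dtx3l with limma on log2(FPKM + 1)), and Trim21, an antibody-binding ubiquitin ligase, had 0.066 (0.041 to 0.11 with 1 library left out, and 0.019 with limma on log2(FPKM + 1)). All 3 had overlapping groups.

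Extreme values were unevenly spread over the libraries. TNF-α+NFL replicate 2 was the lowest of the 6 libraries for 15 of the 32 tested genes (46.9%, against 15.8% of all tested genes), and TNF-α replicate 3 was the highest for 12 (37.5%, against 20.6%). The median deviation of the 32 genes from their own means was 0.044, 0.019 and 0.064 on the log2 scale in the TNF-α libraries and 0.0041, -0.080 and 0.019 in the TNF-α+NFL libraries. Thus TNF-α+NFL replicates 1 and 3 lay within the range of the TNF-α libraries or just under it, and replicate 2 lay below. Without TNF-α+NFL replicate 2 the median log2 fold change of the genes was -0.047, and 1 gene, Psmb9, was lower at an unadjusted p under 0.05 in place of 7 (3.45% of all genes in that fit). In the same fit the log2 fold changes of Irf9, Dhx58, Ifi35 and Psmb10 were -0.062, -0.16, -0.11 and -0.074. For the antigen processing genes the median deviations were 0.048, 0.049 and 0.074 against -0.093, -0.092 and 0.018, with replicate 3 of the TNF-α+NFL group nearest to the TNF-α libraries.

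**Figure D5:**
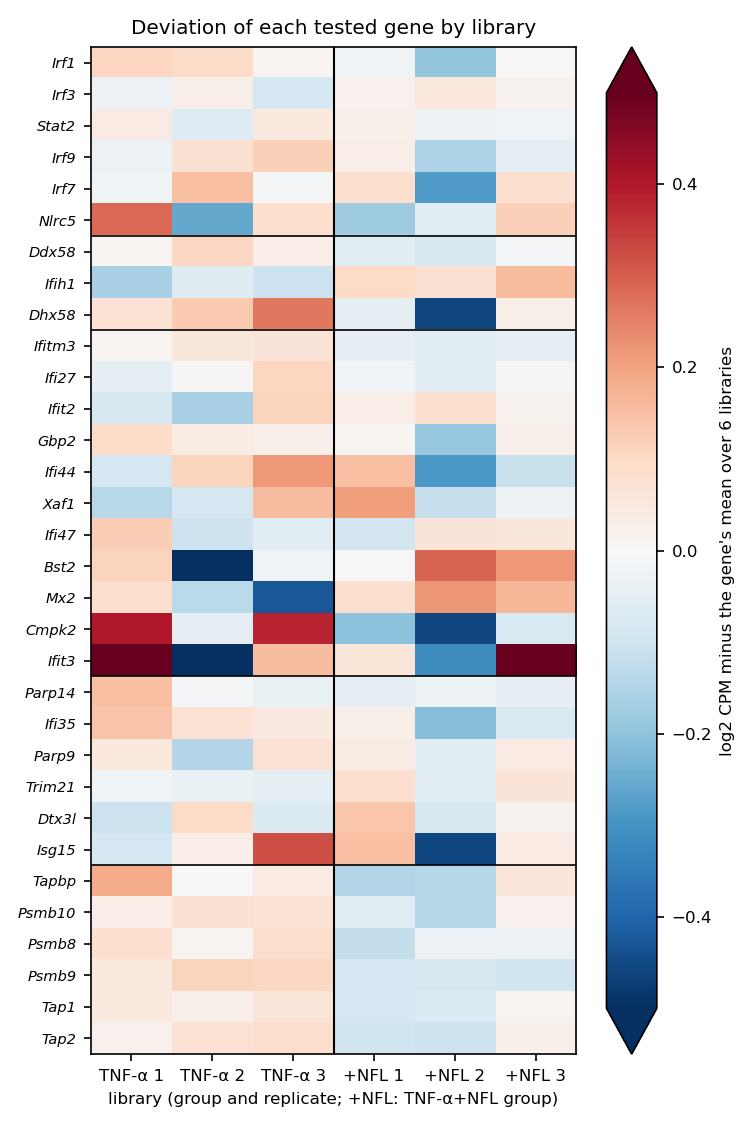
Heat map of the deviation of each tested gene from its own mean over the 6 libraries (log2 CPM), with genes in lines grouped by role and libraries in columns, red above and blue below the mean. The column of TNF-α+NFL replicate 2 is blue for most genes (median -0.080), and the darkest cells belong to genes with few counts such as Ifit3, Bst2 and Cmpk2.

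The wider pathway was read from lists that extend the same roles, in total 148 symbols of which 129 were in the table and 111 could be tested. No gene of these lists passed the adjusted threshold in edgeR (lowest adjusted p = 0.166), and at an unadjusted p under 0.05, 1 was higher and 10 were lower, where 5.66% of all tested genes were higher and 5.45% lower. Of the interferon ligands, 2 of 11 symbols were matched. Ifna5 had 1, 0 and 1 counts in the TNF-α libraries and 0 in each TNF-α+NFL library, and Ifne had 6, 10 and 11 against 6, 5 and 8. The other 9 ligands were not analysed here.

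The 16 receptors and signal transducers were all tested, with 8 log2 fold changes above 0 and 8 below. Their median was -0.013, and -0.0033 without TNF-α replicate 1. The most abundant were the kinase gene Jak1, at 158 ± 8.65 against 167 ± 3.20 TPM (log2 fold change 0.043, SE 0.038), and Stat3, at 127 ± 8.01 against 131 ± 2.80 TPM (0.019, SE 0.041). Socs3 and Socs1, feedback inhibitors of JAK kinases chosen after their values were seen, had the 2 lowest p in this list. Socs3 had 1158, 1148 and 1013 counts in the TNF-α libraries and 962, 979 and 840 in the TNF-α+NFL libraries, a log2 fold change of -0.26 (SE 0.075) with an adjusted p of 0.212 in edgeR. Socs1 had 25, 30 and 26 counts against 21, 12 and 10, a log2 fold change of -0.91 (SE 0.29) with an adjusted p of 0.233 in edgeR. The groups of both genes did not overlap.

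The 13 tested adaptors and kinases of nucleic acid sensing were divided into 6 above 0 and 7 below. Their median was -0.0044, and 0.026 without TNF-α replicate 1. Tlr7, an endosomal RNA receptor gene chosen after its values were seen, was the only gene of these lists that was higher at an unadjusted p under 0.05, with 24 to 39.0 counts in the TNF-α libraries and 39 to 53 in the TNF-α+NFL libraries, a log2 fold change of 0.63 (SE 0.22) and an adjusted p of 0.286 in edgeR. The most abundant were the kinase gene Ikbke, at 43.3 ± 4.03 against 43.1 ± 1.68 TPM, and the adaptor gene Traf3, at 26.7 ± 0.615 against 28.2 ± 0.777 TPM. Of 41 other interferon-inducible genes tested, 14 lay above 0 and 27 below, with a median of -0.021. Ifitm2, a relative of Ifitm3, was at 669 ± 20.2 against 643 ± 33.8 TPM (log2 fold change -0.090, SE 0.050), and Lgals3bp, a secreted glycoprotein gene, at 284 ± 13.7 against 279 ± 6.24 TPM (-0.055, SE 0.040). Ifitm2 and Ifitm3 are similar in sequence and could share reads. Gbp4, a guanylate-binding protein gene also chosen after its values were seen, had the lowest adjusted p of all these lists, with 37.3, 24.8 and 26.9 counts against 19.9, 11.5 and 8.86 and a log2 fold change of -1.12 (SE 0.31).

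Of 23 MHC class I and peptide loading genes, 6 lay above 0 and 17 below, with a median of -0.033. Calr and Pdia3, chaperones of the peptide loading complex, were at 2490 ± 37.2 against 2518 ± 8.39 TPM (log2 fold change -0.017, SE 0.034) and at 1490 ± 32.9 against 1512 ± 7.68 TPM (-0.012, SE 0.037). For both the mean TPM was higher and the log2 fold change of the counts was below 0 in TNF-α+NFL, so that their direction depended on the scaling. Only 4 of 11 MHC class II genes could be tested, all below 0 with a median of -0.25 (-0.15 without TNF-α replicate 1). RT1-DMa, which encodes a chain of the class II peptide exchange factor, was at 39.3 ± 0.939 against 38.6 ± 1.48 TPM (-0.060, SE 0.063), and the invariant chain gene Cd74 at 2.01 ± 0.388 against 1.46 ± 0.236 TPM (-0.52, SE 0.27).

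Markers of other cells that carry these genes were read beside the results. The summed TPM of 10 macrophage and monocyte markers was 105 to 119 in the TNF-α libraries and 99.2 to 102 in the TNF-α+NFL libraries, almost all of it from Cd14 and Cd68, while Aif1 and C1qb had at most 3 counts in every library. TNF-α replicate 1 had the highest level of several others, with 2.10 TPM of Tyrobp and 1.33 TPM of Lyz2 against 0 in each other library, and 1.12 TPM of Csf1r against 0.030 to 0.18. That library was also the highest for Tapbp and Parp14, and the part of macrophage RNA in those values was not tested. Without it the median log2 fold change of the antigen processing genes was -0.12. The sum of 6 dendritic cell markers was 24.5 to 25.2 against 17.4 to 18.7 TPM, most of it from Cd83 (22.5 ± 0.533 against 16.4 ± 0.610 TPM), the only gene of that list called in edgeR, and Clec9a and Xcr1 had at most 3 counts in every library. Lymphocyte and endothelial sums were at most 0.83 and 0.38 TPM. The sum of 7 adipocyte markers was 34.9 to 35.4 against 36.7 to 40.7 TPM. Most of it came from Fabp4 (30.4 ± 0.330 against 33.8 ± 2.17 TPM, adjusted p = 0.700 in edgeR). Adipoq, Plin1, Cidec, Lep and Retn were at 0.27 TPM or less in every library. The part of Cd14, Cd68 and Cd83, whose mean TPM was lower in the TNF-α+NFL libraries, in the antigen processing values was not tested.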

How the data were processed

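The RNA-seq libraries of rat chondrocytes were used as labelled, 3 in each group. The values deposited for each gene were estimated counts without normalization, of which 27.3% to 28.0% per library were fractional, with FPKM and TPM values, both scaled for transcript length and library size by the authors. The submitters' processing notes name HISAT2 2.0.4, Bowtie2 2.2.5, RSEM 1.2.12 and the build Rnor_6.0. RSEM divides reads between similar genes, and 12 of the 38 genes had fractional counts (Cmpk2, Gbp2, Ifit2, Ifit3, Ifitm3, Mx2, Nlrc5, Oas1a, Parp9, Psmb8, Tap1 and Tap2), so their values are less certain.

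Rounded counts were fitted in R 4.3.3 with edgeR 4.0.16 (genes kept by filterByExpr, TMM scaling, robust quasi-likelihood, two-sided, Benjamini-Hochberg adjustment over 13250 genes). The biological coefficient of variation was 6.39%. For the RNA-seq genes the paper gives FPKM as the level and a p threshold of 0.05 without naming the test, and its general statistics section describes an analysis of variance across groups. SEs came from each log2 fold change divided by the root of its F value. DESeq2 1.42.0, limma 3.58.1 (voom, and log2 of FPKM with a pseudocount of 1 or 0.1), other filters, a replicate block and leaving out each library were alternatives. Genes at 3 counts or fewer were taken as at the floor. The p-values measure only the spread between these libraries, which the study calls biological replicates, drawn from cultures of the same passage.

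The 38 genes and all lists were chosen with earlier results of these data known. Values per library are given for the 2 genes of smallest p and the 2 of highest mean TPM in each role and for each tested gene whose groups do not overlap. In the pathway lists the 2 of highest mean TPM are named. Of 18420 gene identifiers, 17068 matched RefSeq, including all 38.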

Additional observations from a re-analysis of the deposited data

How the results depend on the processing

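No gene of the 38 was called higher under any alternative, and leaving out 1 library gave 0 to 1 called lower, the 1 (Ifitm3) without TNF-α replicate 1. In the pathway lists leaving out 1 library gave 0 called higher and 0 to 11 called lower, the 11 (9 of them constitutive proteasome genes) without TNF-α replicate 1, where 3.51% of all genes were called lower. At an unadjusted p under 0.05, 1 gene was higher and 7 lower (5.66% and 5.45% of all tested genes). DESeq2's Wald test gave 0 higher and 2 lower (5.93% of all genes in either direction). Leaving out 1 library gave 0 to 2 higher and 1 to 6 lower, the fewest lower without TNF-α+NFL replicate 2 (3.45% of all genes in that fit). For the other fits with 1 library left out no share of all genes is given here, so their counts have no background. The median log2 fold change of the 32 genes was -0.12 to -0.047 with 1 library left out, and that of the antigen processing genes -0.16 to -0.10.

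With a replicate block 4 genes were lower at an unadjusted p under 0.05 (4.8% of all genes) and 0 were called. The deviations of same-numbered libraries correlated at 0.030, -0.024 and 0.10, which gives no sign of pairing by number. Such low values cannot show that same-numbered cultures were prepared apart.

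Dtx3l, at 0.053, was at -0.013 with limma on log2(FPKM + 1) and -0.019 with a pseudocount of 0.1. Leaving out 1 library turned the sign of 9 genes, with log2 fold changes of -0.051 to 0.054 for Parp9, -0.020 to 0.091 for Ifi47, -0.28 to 0.46 for Ifit3, -0.054 to 0.14 for Xaf1, -0.0047 to 0.12 for Dtx3l, -0.048 to 0.0070 for Stat2, -0.079 to 0.0016 for Ifi27, -0.13 to 0.036 for Irf7 and -0.22 to 0.045 for Nlrc5. Of 192 gene values with 1 library left out, 175 kept their direction and their side of the threshold, as did 251 of 253 under the other settings. The 6 genes with at most 10 counts in every library were below what this depth can compare.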
